A study of Mus musculus with 677 samples.

Results

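The 10 genes described here encode carriers that bring sugars, peptides, amino acids and a citric acid cycle intermediate across the intestinal epithelium: Slc5a1, Slc2a2, Slc15a1, Slc6a19, Slc7a9, Slc3a1, Slc7a7, Slc7a8, Slc1a5 and Slc13a2. They were chosen by name, and all 10 were found among the 23420 genes of the deposited table. The table holds 677 single-cell transcriptomes of primary mouse intestinal epithelial cells, made with SMART-Seq2, a plate method that reads full-length cDNA of 1 cell per library. The cells came from Atg16l2 knockout mice (KO, Atg16l2-/-, 50.5% of the cells) and wild-type mice (WT, 49.5%), all of strain C57BL/6, and the study asked what this autophagy-related gene does in the tissue. Age, sex, diet and the stretch of intestine sampled were not given in the sources used here. Each title gives a run (1 or 2), a code (M1 or M2) and 1 of 9 annotated types. M1 and M2 were read as animals of each genotype, and the same code in both runs as the same animal, which the labels do not state, so that KO M1 held 25.4% of the cells, KO M2 25.1%, WT M1 24.8% and WT M2 24.7%.

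Absorptive cells of the intestine are renewed from crypt stem cells, which pass through transit-amplifying (TA) cells and enterocyte progenitors before they reach the villus. Nutrients cross a mature enterocyte in 2 steps, through carriers of the brush border that often run on the sodium or proton gradient, and then through carriers of the basolateral membrane that lead to the blood. Several of the amino acid carriers work as pairs, in which a light chain transports and a heavy chain or helper brings it to the membrane. The lineage is covered here by the annotated types Stem (96 cells), TA (25.8% of all cells), Enterocyte.prog.early (20.97% of all cells), Enterocyte.prog.late (75) and Enterocyte (58). The other types were Goblet (70), Enteroendocrine (32), Paneth (22) and Tuft (7).

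Values are TPM, a transcript abundance unit scaled to gene length and to the same sum in every cell, so sequencing depth is unknown and a level is a share of the RNA in a cell. A level given for a cell type is the mean over the cells of each animal, and then over the 4 animals, with the SD over animals. The median number of genes above 0 TPM per cell was 6170 in KO cells and 6042 in WT cells, and it ran from 5134 in Paneth to 6713 in Enterocyte.prog.early cells. It was 5730.5 in run 2 and 6477 in run 1. Atg16l2 itself was listed at 0 in every KO cell and above 0 in 20 WT M1 cells (11.9%) and 18 WT M2 cells (10.8%). Summed markers of Stem, TA, Enterocyte, Goblet, Paneth, Enteroendocrine and Tuft cells were each highest in the type of that name. The annotation was made from these same cells by means not stated, so levels along the lineage are described without a test.

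Of the 10 genes, 9 stood highest in Enterocyte among the 5 stages, in each of the 4 animals and in each run. Slc1a5 was the exception and was highest in Stem cells. The summed level of the 10 was 306.9 ± 39.5 TPM in Stem, 269.5 ± 17.5 in TA, 431 ± 33.1 in Enterocyte.prog.early, 797 ± 121.4 in Enterocyte.prog.late and 2242 ± 419 in Enterocyte cells (SD, n = 4 animals). From Enterocyte.prog.late to Enterocyte, the 4 animals of the later stage lay above the 4 of the earlier for 9 of the 10 genes. That pattern was seen in 6.64% of the 6689 genes that passed the filter on low values, which hold 8 of the 10 (all but Slc2a2 and Slc13a2), and 7 of those 8 showed it. Among them Slc15a1 and Slc6a19 passed the filter only through their Enterocyte level, so for these genes the filter itself favors the pattern. The one gene that overlapped at this step was Slc1a5, and 0 lay below (9.94% of genes). From TA to Enterocyte.prog.early 5 of the 10 lay above (13.1% of genes) and Slc1a5 lay below (9.87%). From Enterocyte.prog.early to Enterocyte.prog.late 4 lay above (8.87%), and from Stem to TA only Slc7a8 lay above (9.45%) and only Slc1a5 below (3.69%). These shares are given for scale, since the stages were annotated on the same cells.

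**Figure D1:**
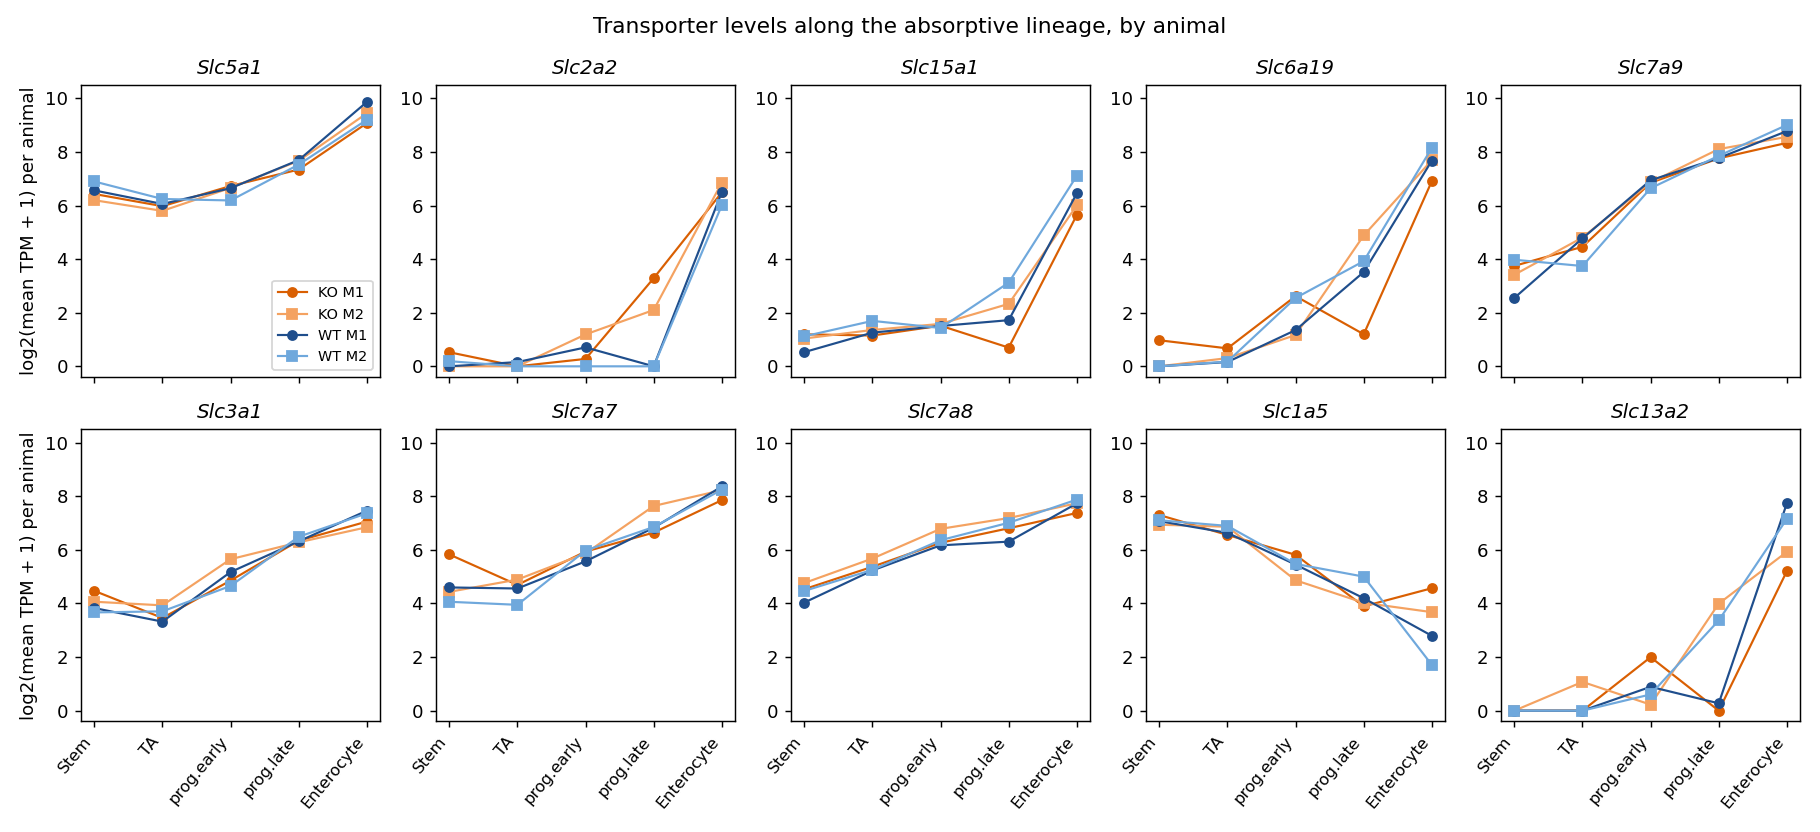
Level of each of the 10 genes along the absorptive lineage, as log2(mean TPM + 1) per animal, with 1 line for each of KO M1, KO M2, WT M1 and WT M2. For 9 genes every line ends at its highest point in Enterocyte cells, and Slc1a5 runs the other way from 137.1 TPM in Stem to 10.7 TPM in Enterocyte cells.

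The genes differed in when they appeared. Onset was read as the first stage at 10% or more of the highest stage level, and the midpoint stage as the first at 50% or more. Slc2a2, Slc15a1, Slc6a19 and Slc13a2 had their onset in Enterocyte itself, with 3.38%, 4.36%, 6.70% and 5.44% of their highest level in Enterocyte.prog.late. Slc7a9 and Slc7a7 had theirs in Enterocyte.prog.early, at 27.3% and 19.5%. Slc5a1, Slc3a1, Slc7a8 and Slc1a5 were already at 10% or more in Stem cells, of which Slc3a1 (10.6%) and Slc7a8 (10.3%) lay just above that line and Slc7a7 (9.95%) just below it. The midpoint was reached in Enterocyte.prog.late by Slc7a9, Slc3a1 and Slc7a8 and in Enterocyte by 6 genes. With the median over cells in place of the mean, 8 genes kept their onset and 8 their midpoint. With KO cells alone 8 kept their onset and 9 their midpoint, and with WT cells alone 8 kept their onset and 7 their midpoint. Slc7a9 and Slc7a8 passed 50% in the same stage in 2 of 4 animals each, fewer than any other gene. With the share of cells above 0 in place of TPM, 7 kept their highest stage, 4 their onset and 5 their midpoint.

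**Figure D2:**
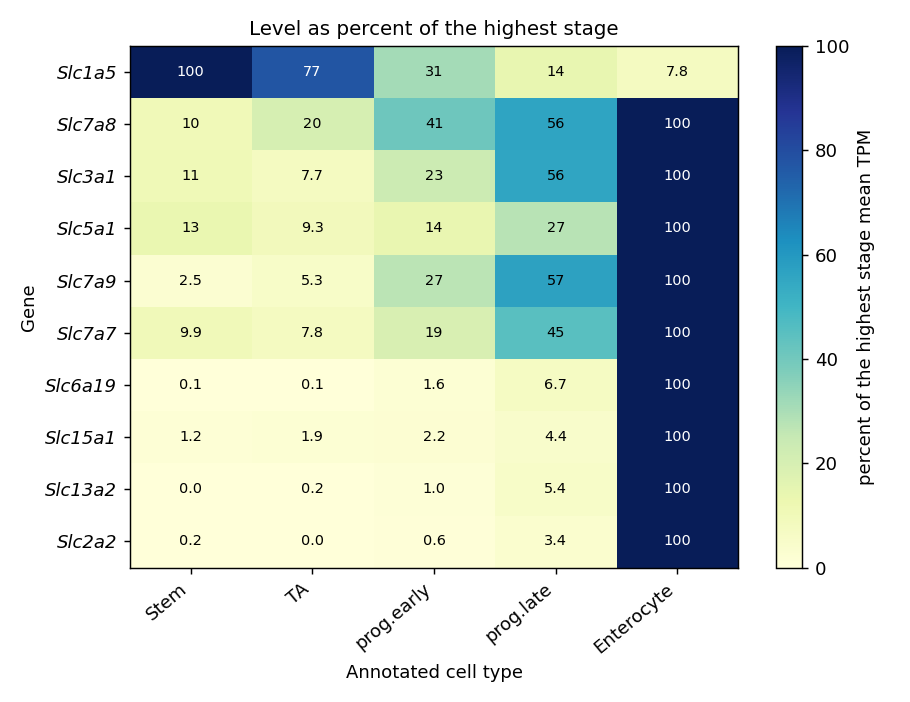
Mean TPM of each gene in the 5 stages as percent of its highest stage, by color and printed in each cell. The 4 genes at the bottom stay under 10% until Enterocyte, whereas Slc7a8, Slc3a1 and Slc7a9 stand between 55.5% and 56.9% in Enterocyte.prog.late.

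The glucose carriers differed in their onset. Slc5a1 encodes SGLT1, the sodium-glucose cotransporter of the brush border, and was the most abundant of the 10 in Enterocyte cells at 687 ± 175.02 TPM. Its level was 92.4 ± 19.3 TPM in Stem, 64.3 ± 8.35 in TA, 94.05 ± 14.9 in Enterocyte.prog.early and 188.3 ± 20.6 in Enterocyte.prog.late cells. Slc5a1 was above 0 in 92 of 96 Stem cells and in all 58 Enterocyte cells, so the stages differed in level more than in detection. It was low in the secretory types, with 13.3 ± 8.86 TPM in Goblet and 17.4 ± 17.5 in Paneth cells, and it reached 68.99 ± 61.3 in Enteroendocrine cells. Slc2a2 encodes GLUT2, the facilitative glucose and fructose carrier known mainly from the basolateral membrane. Its level was 0.145 ± 0.207 TPM in Stem, 0.029 ± 0.058 in TA, 0.531 ± 0.565 in Enterocyte.prog.early, 3.02 ± 4.14 in Enterocyte.prog.late and 89.2 ± 21.005 in Enterocyte cells. It was above 0 in 32 of 58 Enterocyte cells (55.2%, exact Clopper-Pearson 95% interval 41.5% to 68.3%) and in 5 of 75 Enterocyte.prog.late cells. All 32 of these Enterocyte cells also had Slc5a1, and the other 26 had Slc5a1 alone. Such intervals cover counting error alone.

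Slc15a1 encodes PEPT1, the proton-coupled carrier of di- and tripeptides. Its level was 0.989 ± 0.376 TPM in Stem, 1.60 ± 0.45 in TA, 1.85 ± 0.12 in Enterocyte.prog.early, 3.67 ± 3.03 in Enterocyte.prog.late and 84.1 ± 38.7 in Enterocyte cells. Slc15a1 was above 0 in 33.3% of Stem and 41.7% of TA cells, but at a median of 2.68 and 2.32 TPM in the cells that had it, against 39.8 TPM in Enterocyte cells that had it. Goblet cells, outside the lineage, had it above 0 in 44.3% of cells at a mean of 1.48 TPM. Slc13a2 encodes NaDC1, a sodium-coupled carrier of succinate and citrate. It was listed at 0 in all 96 Stem cells, which allows a share of up to 3.13% (taking 3 cells as the limit for a count of 0), and in all 70 Goblet cells. Its level was 0.276 ± 0.553 TPM in TA, 1.13 ± 1.27 in Enterocyte.prog.early, 6.12 ± 7.31 in Enterocyte.prog.late and 112.5 ± 80.6 in Enterocyte cells, of which 29 of 58 had it.

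The partners of the cystine and basic amino acid exchanger, rBAT (Slc3a1, the heavy chain) and b0,+AT (Slc7a9, the transporting light chain), were both higher at each stage from Enterocyte.prog.early on. TPM is scaled to length, so levels of the partners can be set side by side. Slc7a9 stood at 10.4 ± 4.25 TPM in Stem, 21.7 ± 6.75 in TA, 112.7 ± 9.66 in Enterocyte.prog.early, 234.5 ± 27.5 in Enterocyte.prog.late and 412 ± 81.7 in Enterocyte cells. Slc3a1 stood at 15.5 ± 4.17, 11.3 ± 2.32, 34.1 ± 11.1, 81.2 ± 5.35 and 146.3 ± 28.2 TPM in the same order of stages. The light chain had the higher mean from TA onward, with overlap over animals in TA, and the heavy chain had the higher mean in Stem, Goblet and Enteroendocrine cells, where the values of the partners overlapped over animals. Both were above 0 in 7.29% of Stem, 9.14% of TA, 43.7% of Enterocyte.prog.early, 86.7% of Enterocyte.prog.late and 96.6% of Enterocyte cells. Within the 58 Enterocyte cells their levels were weakly related (Pearson r = 0.19 on log2 values, a description across cells).

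The promoters of this pair are shown because the proteins work as a pair and the transcripts shared a course, and that of Slc6a19 because its onset was late. The letters are the 250 bases before the RefSeq transcript start on GRCm38.p6, read 5′ to 3′ on the gene's own strand, from chr7:35448842-35449091 (plus strand, the first of 2 listed starts of Slc7a9), chr17:85028097-85028346 (plus strand) and chr13:73692637-73692886 (minus strand). Capitals mark matches, on either strand, to GTTAAT (part of an HNF1 site), CAAAGTC (HNF4 core), the CDX2 forms TTTATT, then also TTTATG, and finally TTTATC, and the GATA site AGATAA, all families of regulators known from the intestinal epithelium.
Slc7a9: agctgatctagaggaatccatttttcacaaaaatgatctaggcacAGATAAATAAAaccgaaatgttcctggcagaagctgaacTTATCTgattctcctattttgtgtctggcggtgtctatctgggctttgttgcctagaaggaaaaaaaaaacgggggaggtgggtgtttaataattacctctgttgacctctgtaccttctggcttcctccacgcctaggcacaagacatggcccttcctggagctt
Slc3a1: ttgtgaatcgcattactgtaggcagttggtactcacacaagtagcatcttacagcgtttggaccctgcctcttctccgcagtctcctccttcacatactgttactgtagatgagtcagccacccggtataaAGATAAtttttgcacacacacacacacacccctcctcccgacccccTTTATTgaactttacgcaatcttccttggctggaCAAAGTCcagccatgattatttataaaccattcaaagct
Slc6a19: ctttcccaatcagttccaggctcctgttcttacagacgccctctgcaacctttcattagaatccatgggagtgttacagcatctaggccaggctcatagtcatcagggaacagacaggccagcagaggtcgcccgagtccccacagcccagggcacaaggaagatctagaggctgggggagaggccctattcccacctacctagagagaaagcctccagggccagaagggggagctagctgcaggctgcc
The first capital run of Slc7a9 is 3 overlapping matches, to AGATAA and TTTATC and TTTATT, and the second is an AGATAA match on the other strand. Slc3a1 holds AGATAA and TTTATT and CAAAGTC in the stretch shown, and Slc6a19 none of the 6 motifs. Over the full windows of 300 bases, 9 of the 10 genes had an entry and Slc1a5 is named only. The 9 genes have 14 windows, and a gene counts if any of its windows matches. Counts of genes and shares of windows are therefore unlike units. AGATAA was in windows of 3 of the 9 (Slc7a9, Slc3a1 and Slc7a7) and in 11.2% of all 32851 windows, CAAAGTC in 2 (Slc3a1 and Slc7a7) and in 4.44%, and GTTAAT in the same 2 and in 7.10%. TTTATT was in 4 (Slc7a9, Slc3a1, Slc7a8 and Slc13a2) and in 19.6% of windows, TTTATC in 2 (Slc7a9 and Slc7a7) and in 10.1%, and TTTATG in 0 and in 11.9%. A match is a string of letters and not a measured binding site.

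The basolateral exchangers Slc7a7 (y+LAT1, basic amino acids) and Slc7a8 (LAT2, neutral amino acids) share the heavy chain Slc3a2 (4F2hc). Slc7a7 stood at 28.9 ± 18.3 TPM in Stem, 22.7 ± 6.02 in TA, 56.6 ± 6.93 in Enterocyte.prog.early, 131.2 ± 45.3 in Enterocyte.prog.late and 290.4 ± 41.9 in Enterocyte cells. Slc7a8 stood at 21.2 ± 4.45, 41.1 ± 6.28, 84.4 ± 17.1, 115.5 ± 28.5 and 206.1 ± 29.04 TPM in the same stages, and it was the one gene whose animals lay higher at TA than at Stem. The 2 exchangers parted outside the lineage: in Goblet cells Slc7a7 had 36.8 ± 10.97 TPM and was above 0 in 51 of 70 cells, and Slc7a8 had 5.91 ± 0.72 TPM in 20 of 70. Slc3a2 stood at 82.8 TPM in Stem, 89.3 in TA, 158.8 in Enterocyte.prog.early, 202.4 in Enterocyte.prog.late and 379.1 ± 39.6 in Enterocyte cells. All 58 Enterocyte cells had Slc7a7, Slc7a8 and Slc3a2 above 0, whereas 48 of 96 Stem cells had Slc3a2 without Slc7a7.

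Slc6a19 encodes B0AT1, the sodium-coupled carrier of neutral amino acids in the brush border. It stood at 0.240 ± 0.481 TPM in Stem, 0.269 ± 0.221 in TA, 3.20 ± 2.09 in Enterocyte.prog.early, 13.6 ± 11.3 in Enterocyte.prog.late and 203.1 ± 66.98 in Enterocyte cells. It was above 0 in 48 of 58 Enterocyte cells and in 20 of 75 Enterocyte.prog.late cells.

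Slc6a19 was not confined to the absorptive lineage. In Enteroendocrine cells, which secrete gut hormones, its level was 240.98 ± 177.6 TPM, with 131.3 and 154.6 TPM in KO M1 and KO M2 and 506 and 171.9 TPM in WT M1 and WT M2. These values overlap those of Enterocyte cells, and the other 7 types lay at 13.6 TPM or less. It was above 0 in 20 of 32 Enteroendocrine cells (62.5%, exact interval 43.7% to 78.9%), against 4% of TA and 4.29% of Goblet cells at medians of 6429 and 5816.5 genes per cell and 5590.5 in Enteroendocrine cells. Other transcripts of enterocytes differed in how often they were found there. Apoa1 was above 0 in 20 of 32 cells, Slc5a1 in 18, Slc7a8 in 16, Slc3a1 in 12 and Fabp1 in 11. The brush border enzyme Alpi was above 0 in 4 of 32 cells, Slc7a9 in 5, Slc13a2 in 1 and Slc2a2 in 0, which allows a share of up to 9.38%. A split of the 32 cells, chosen after the values were seen, showed Chgb, a granule protein of mature endocrine cells, above 0 in 18 of the 20 cells with Slc6a19 and in 2 of the 12 without. Neurog3, the factor of endocrine progenitors, was above 0 in 6 of the 20 and in 9 of the 12. Over the 32 cells log2 Slc6a19 had a Pearson r of 0.79 with Chgb and -0.54 with Neurog3, as a description of cells from 4 animals. Slc15a1 averaged 25.3 ± 17.2 TPM in this type, above 0 in 21 of 32 cells at a median of 2.56 TPM over all 32, and its animals (2.83 to 43.6 TPM) overlapped those of Enterocyte.prog.late.

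**Figure D3:**
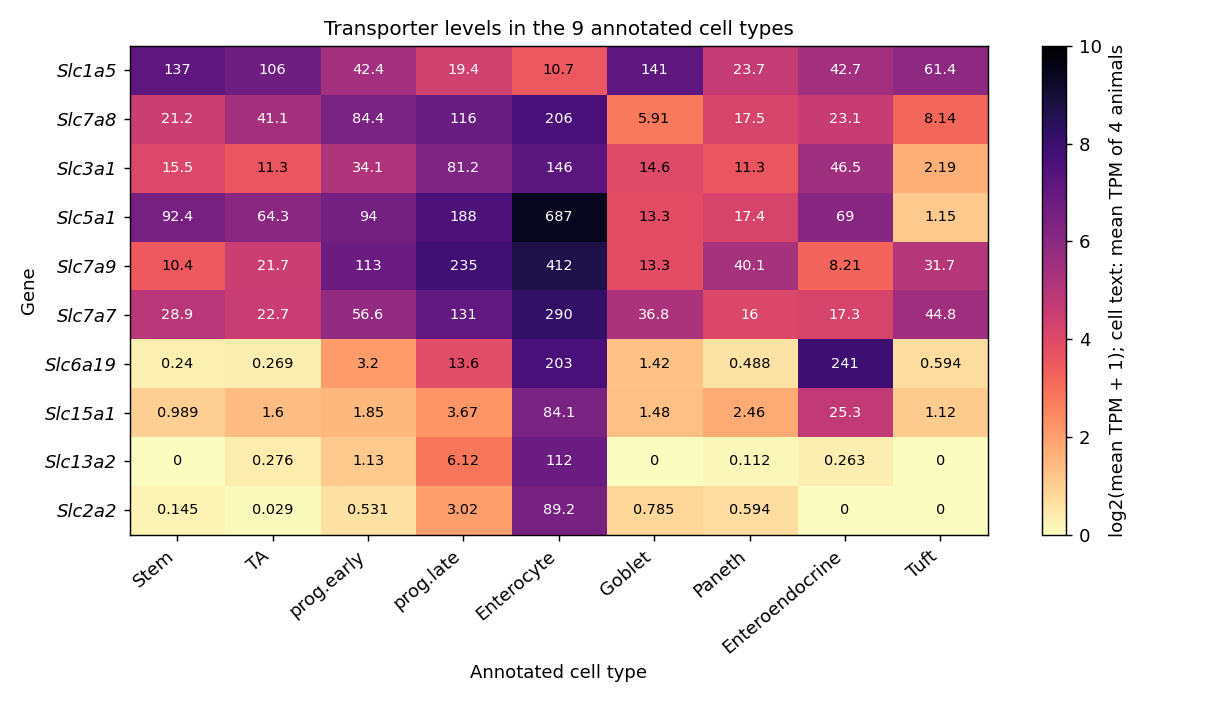
Mean TPM of the 10 genes (rows) in the 9 annotated cell types (columns), printed in each cell and colored as log2(mean TPM + 1). Slc6a19 is dark in Enteroendocrine (240.98 TPM) as well as in Enterocyte (203.1 TPM), and Slc1a5 is dark in Goblet (141.1 TPM), Stem (137.1 TPM) and TA (106.3 TPM).

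Slc1a5 encodes ASCT2, a sodium-dependent exchanger of glutamine and other neutral amino acids that is known from dividing cells. It ran against the other 9, with 137.1 ± 14.5 TPM in Stem, 106.3 ± 12.3 in TA, 42.4 ± 11.1 in Enterocyte.prog.early, 19.4 ± 7.91 in Enterocyte.prog.late and 10.7 ± 8.95 in Enterocyte cells. Goblet cells had 141.1 ± 41.7 TPM, which overlapped Stem, and Tuft cells 61.4 ± 41.96. The share of cells above 0 was 97.9% in Stem and 34.5% in Enterocyte cells. From Stem to Enterocyte it was the one gene of the 10 whose animals lay lower at the later stage (27.5% of genes), and the other 9 lay higher, 7 of them among the genes that passed the filter (19.8%). Of these 7, Slc15a1 and Slc6a19 passed the filter only through their Enterocyte level.

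Within the 58 Enterocyte cells the late genes varied together, and Slc5a1 with them. The 6 pairs among Slc2a2, Slc15a1, Slc6a19 and Slc13a2 had Pearson r of 0.41 to 0.59 on log2 values (median 0.55), and the 10 pairs among the other 5 genes that were highest in Enterocyte had 0.056 to 0.48 (median 0.21). Slc5a1, which is not among the late genes, had r of 0.51 with Slc2a2, 0.57 with Slc15a1, 0.49 with Slc6a19 and 0.44 with Slc13a2, inside the range of the late pairs. Slc1a5 had r of -0.55 to -0.12 with the 9 others. All 4 late genes were above 0 in 20 of 58 Enterocyte cells and in 0 cells of each other type. These 4 were defined by their low level in the earlier stages, so the 0 there leans on that definition. With Apoa1, an apolipoprotein of mature enterocytes, r was 0.73 for Slc5a1, 0.64 for Slc2a2, 0.090 for Slc7a9 and -0.32 for Slc1a5. These are descriptions of cells that share a library preparation, and the number of genes per cell had r of -0.091 to 0.050 with the 9 and 0.37 with Slc1a5.

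For the 8 members that passed the filter on low values, the genes outside the 10 with the most similar log2 profile were listed. The profiles numbered 24 (4 animals by the 6 types in which each animal had 10 cells or more). Between members, Slc15a1 and Slc6a19 had r of 0.93. Slc6a19 was nearest to Ace (r = 0.97) and the sodium-inositol carrier Slc5a11 (0.96), and Slc15a1 to Apoa1 (0.93) and the lactase gene Lct (0.93). Slc5a1 was nearest to Rab17 (0.95) and the brush border glucosidase gene Mgam (0.95), and Slc7a9 to Prss30 (0.97) and Pkm (0.97). Both Slc3a1 (0.96) and Slc7a7 (0.97) had the brush border protease gene Mep1b first, followed by Rbp2 (0.95) and Ckmt1 (0.96). Slc7a8 was near to Tgfbi (0.97), and Slc1a5 was nearest to Mpzl1 (0.94) and the serine synthesis gene Phgdh (0.93). Genes near to the mean of the members included Fabp1 (0.96), Slc9a3r1 (0.96) and Mttp (0.96). Slc2a2 and Slc13a2 were too low outside Enterocyte for this listing.

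The list of other carriers and partners of nutrient uptake held 45 genes of the table, and 27 of them reached 10 TPM in some stage. Of these 27, 19 were highest in Enterocyte, 6 in Stem or TA and 2 in a progenitor stage. Among the stages, Slc5a4a, Slc5a4b, Slc5a9, Slc5a12, Slc7a15, Pdzk1, Slc6a8 and Slc13a1 reached 10 TPM only in Enterocyte. For these genes the threshold itself favors the count, and the share over all genes is not given. Among the 6 most abundant in Enterocyte cells were the sodium pump subunit Atp1b1 (422 ± 15.6 TPM), Slc3a2, the imino acid carrier Slc6a20a (217.1 ± 29.7) and Slc5a11 (114.3 ± 31.2). The sodium pump keeps the gradient for the coupled carriers, and Atp1b1 was also high in Stem cells, at 247.5 TPM. Slc5a11 had the late course, with 0.226 TPM in Stem and 11.4 TPM in Enterocyte.prog.late cells.

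None of the 10 genes passed the threshold between KO and WT. KO and WT were compared over animals (n = 2 each) with limma on log2(mean TPM + 1), as a two-sided test at 0.05 after adjustment by Benjamini-Hochberg for all genes. Differences are KO minus WT on that scale, which understates changes of low genes. On the average of the 3 absorptive types, 0 of 10 members were called, against 0.126% of 6360 genes. The smallest adjusted p among them was 0.623, for Slc2a2, the one member with an unadjusted p under 0.05 (6.56% of genes), and the members' median difference was -0.05. Both KO animals lay above both WT animals for 2 members, Slc2a2 and Slc1a5 (18.4% of genes), and below for 0 (16.9%). On the average of 6 types 0 of 8 members that passed the filter were called (0% of 6714 genes, of which 510 had an unadjusted p under 0.05). There 3 lay above (22% of genes) and 1, Slc5a1, below (17.1%). No member was called by limma in any of the 6 types alone. Called were 0 of 6 members in Stem (0% of 6764 genes, with 5.5% at an unadjusted p under 0.05), 0 of 6 in TA (0.0589%), 0 of 6 in Enterocyte.prog.early (0% of 6565 genes, 5.51% unadjusted), 0 of 7 in Enterocyte.prog.late (0.0817%) and 0 of 5 in Goblet cells (0.0161%). For the interaction of genotype with the 6 types, a limma F test called 0 members (0.0149% of genes), with a smallest adjusted p of 0.524, for Slc1a5. With 2 animals per genotype these intervals are wide, and p-values measure the spread between the codes read as animals.

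In Enterocyte cells, where the carriers are most abundant, 8 of the 10 genes were lower in KO and 2 higher, with a median of -0.36 against -0.04 over all 5854 genes tested. limma called 0 of the 10 (0.0342% of genes), and 3 (Slc15a1, Slc1a5 and Slc13a2) had an unadjusted p under 0.05 (8.23% of genes). Both KO animals lay below both WT animals for 5 members, Slc15a1, Slc7a9, Slc3a1, Slc7a7 and Slc13a2 (21.6% of genes), and above for 1, Slc1a5 (16.3%). Slc1a5 passed the filter on low values here only through its KO animals, so its place in these counts leans on that selection. Slc15a1 had 49.2 and 63.2 TPM in KO and 86.8 and 137.2 TPM in WT animals, a difference of -0.96 (95% interval -1.68 to -0.24, limma adjusted p = 0.465). Slc7a9 had 322.6 and 376.8 TPM in KO and 438 and 513 TPM in WT animals, a difference of -0.44 (95% interval -0.89 to 0.01, limma adjusted p = 0.604). Its partner Slc3a1 had 132.04 and 113.999 TPM in KO and 175.4 and 163.6 TPM in WT animals, a difference of -0.46 (95% interval -0.99 to 0.07). Slc7a7 had 230.8 and 298.9 TPM in KO and 328.97 and 302.8 TPM in WT animals, so the nearest animals of the genotypes almost met. The other 4 overlapped between genotypes: Slc5a1 had 538 and 695 TPM in KO and 931 and 586 in WT animals, and Slc2a2 had 88.99 and 114.8 TPM in KO and 89.7 and 63.4 in WT animals. Slc6a19 had 119.4 and 205.9 TPM in KO and 203.8 and 283.4 in WT animals, and Slc7a8 had 165.3 and 212.9 TPM in KO and 212.1 and 234.1 in WT animals.

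**Figure D4:**
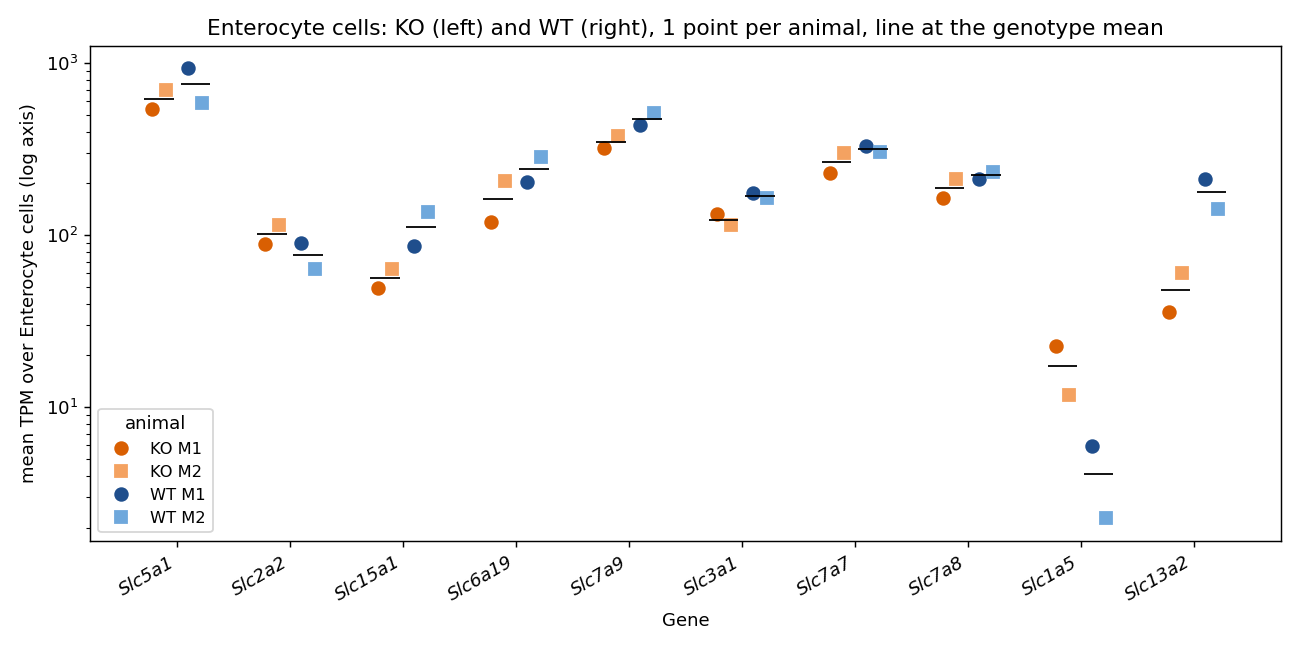
Mean TPM of the 10 genes over the Enterocyte cells of each animal (log axis), with KO M1 and KO M2 left of WT M1 and WT M2 and a line at each genotype mean. The widest gaps are those of Slc13a2 (35.96 and 59.9 TPM in KO, 212.5 and 141.6 TPM in WT) and, in the other direction, Slc1a5 (22.7 and 11.8 TPM in KO, 5.94 and 2.27 TPM in WT).

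Of the 10, Slc13a2 had the smallest adjusted p. It had 35.96 and 59.9 TPM in KO M1 and KO M2 and 212.5 and 141.6 TPM in WT M1 and WT M2, a difference of -1.88 (95% interval -2.64 to -1.12, limma adjusted p = 0.136). It was above 0 in 14 of 29 KO and 15 of 29 WT cells, and 3 of 29 KO and 9 of 29 WT cells reached 100 TPM. The highest single cell had 518 TPM in KO and 1347 TPM in WT, and without each genotype's highest cell the means over cells were 33.3 TPM in KO and 144.1 TPM in WT. Within runs the separation did not hold. In run 1 KO M1 had 27.01 and KO M2 132.8 TPM, and WT M1 72.1 and WT M2 254.5 TPM. In run 2 KO M1 had 40.4 and KO M2 29.5 TPM, and WT M1 301.8 and WT M2 6.19 TPM. The differences were -1.16 in run 1 and -0.39 in run 2, and the 4 to 12 cells behind each of these values are few. The gene was called, at -2.38 (limma adjusted p = 0.0196), without KO M2 cells of run 1, and at -2.24 (0.0104) without KO M2 altogether, where the lone KO animal is assumed to vary like the WT animals. With log values averaged over cells the difference was -0.94 (limma adjusted p = 0.776).

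**Figure D5:**
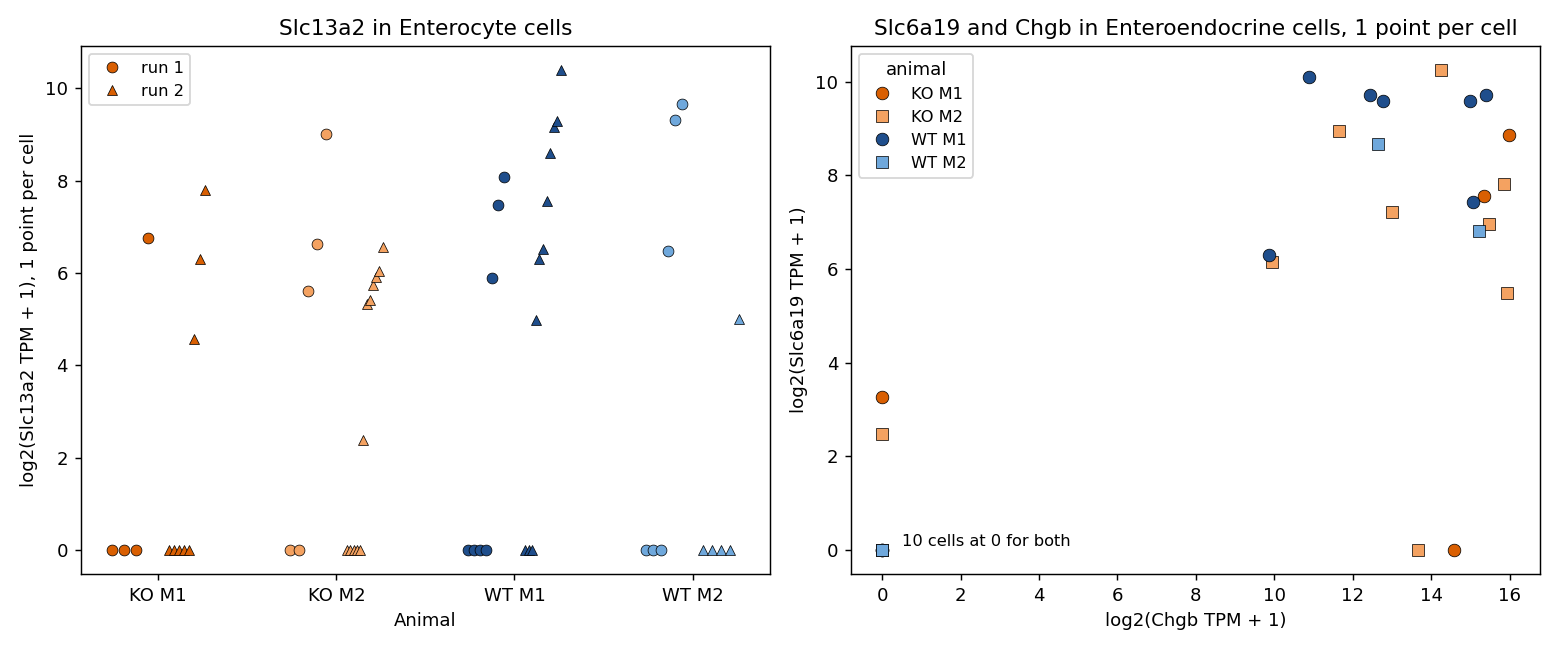
Left, Slc13a2 in each Enterocyte cell as log2(TPM + 1), by animal (KO M1, KO M2, WT M1, WT M2) and run; right, Slc6a19 against Chgb in each Enteroendocrine cell, both as log2(TPM + 1). On the left 3 of 29 KO and 9 of 29 WT cells reach 100 TPM, and the highest is a WT M1 cell of run 2 with 1347 TPM; on the right 18 of 32 cells have both genes and 10 have neither.

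Slc1a5 lay the other way, with 22.7 and 11.8 TPM in KO and 5.94 and 2.27 TPM in WT Enterocyte cells. The difference was 1.87 (95% interval 0.23 to 3.51, limma adjusted p = 0.516). Slc1a5 passed the filter of 10 TPM, at a mean of 10.7 TPM, only through its KO animals, so this test leans toward KO being higher. Summed markers of Paneth, Stem and Goblet cells were also higher in KO Enterocyte cells, and their part in the Slc1a5 difference was not tested. All 7 Paneth markers, 6 of 8 Stem markers and 5 of 8 Goblet markers were higher in both KO animals than in both WT animals (16.3% of genes). In the other direction lay 1 Stem marker (21.6% of genes). Summed Paneth markers were 3886 and 558 TPM in KO and 150 and 98.4 TPM in WT. Summed Stem markers were 367.3 and 46.8 TPM in KO and 23.4 and 14.1 TPM in WT, and summed Goblet markers 105.4 and 2511 TPM in KO and 62.2 and 72.97 TPM in WT. Of 58 Enterocyte cells 4, all KO, carried 3000 TPM or more of one of these lists. Without them, an alternative chosen after the data were seen, 1 Paneth, 0 Stem and 1 Goblet markers lay above in both KO animals and 4 of 8 Goblet markers below. The cells left out were picked by these same lists, so a fall of the markers in KO was built into the choice. In this setting Slc7a7 overlapped between genotypes, and Slc1a5 stood at 21.9 and 9.49 TPM in KO and 5.94 and 2.27 TPM in WT animals. That left Slc1a5 below the filter, so it has no test there. In the same setting Slc13a2 was called, at -2.13 (limma adjusted p = 0.0440), and no other member was.

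Some markers of enterocytes and some genes listed for intestinal position also differed between the genotypes in Enterocyte cells. Of all genes tested there, 16.3% had both KO animals above both WT animals and 21.6% had both below. Summed Enterocyte markers were 24263 and 23446 TPM in KO and 23430 and 32548 TPM in WT animals. Of the 8 markers 4 (Apoa1, Apoa4, Fabp2 and Krt20) were lower in both KO animals and 1 (Adh6a) higher, with Apoa1 at 4303 and 5856 TPM in KO and 8339 and 10487 TPM in WT animals. The median cell had a summed level of these markers of 16158 TPM in KO and 10500 TPM in WT. The list for the distal small intestine was drawn up with the apolipoprotein gene Apoc3 in it, so its sums do not measure position alone. They were 1527 and 1364 TPM in KO and 2100 and 3304 TPM in WT Enterocyte cells, with 3 of 6 genes lower in both KO animals. Summed markers of the proximal small intestine were 11859 and 9100 TPM in KO and 5982 and 9425 TPM in WT animals. These proximal sums overlapped between genotypes, and 1 of the 7 markers was higher in both KO animals. T cell, B cell, myeloid and stromal lists summed to 39.9 TPM or less in every animal, with Cd4, Cd79a, Csf1r and Col1a1 at 0. Of the 5 T cell markers 3 were higher in both KO animals, with sums of 15.1 and 5.27 TPM in KO and 0.902 and 1.58 TPM in WT. The part of these shifts in the differences of the carriers was not tested.

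Slc2a2 had the largest difference on the absorptive average, 1.16 (95% interval 0.28 to 2.05, limma adjusted p = 0.623; 1.06 in run 1 and 1.58 in run 2). Its size depended on the pseudocount, at 2.49 with 0.1 and 0.37 with 10, and it was 0.72 without the run 1 cells of KO M2 and 0.55 with log values averaged over cells. In Enterocyte.prog.late cells Slc2a2 was above 0 in 2 of 10 KO M1 and 3 of 22 KO M2 cells, and in 0 of 43 WT cells, which allows a share of up to 6.98%. The means were 8.77 and 3.29 TPM in KO, and it was listed at 0 in both WT animals, so no fold is given.

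Slc5a1 lay lower in both KO animals in Stem, TA and Goblet cells. It had 85.3 and 72.4 TPM in KO and 93.6 and 118.2 TPM in WT Stem cells (KO below for 1 of 6 members tested there, 15.8% of genes). In TA cells it had 61.9 and 54.7 TPM in KO and 65.6 and 74.8 TPM in WT animals (1 of 6, 13.3% of genes). In Goblet cells it had 12.1 and 1.49 TPM in KO and 17.7 and 21.98 TPM in WT animals (1 of 5, 20.1% of genes), and no member lay above in both KO animals there (15.7% of genes). Slc5a1 passed the filter on low values in Goblet cells only through WT, with means of 6.79 TPM in KO and 19.8 TPM in WT. That count therefore leans toward KO being lower. In Enterocyte.prog.early cells KO was above, with 104.99 and 100.009 TPM in KO and 99.2 and 71.98 TPM in WT animals (1 of 6, 22.7% of genes). On the 6-type average the difference was -0.44 (95% interval -0.81 to -0.07, limma adjusted p = 0.595), with -0.21 in run 1 and -0.26 in run 2. This average leans on Goblet cells, where the difference was -1.86. It was -0.42 in Stem, -0.26 in TA, 0.27 in Enterocyte.prog.early, -0.10 in Enterocyte.prog.late and -0.27 in Enterocyte cells. In Enterocyte.prog.late the one member apart among the 7 that passed the filter was Slc1a5, with 13.9 and 15.3 TPM in KO and 17.3 and 31.05 TPM in WT animals (19.7% of genes), while KO lay above in Enterocyte cells. Members with both KO animals above were Slc3a1 and Slc7a8 in Stem (2 of 6, 18.2% of genes) and Slc7a7 and Slc7a8 in TA cells (2 of 6, 26.7%). Slc7a7 had 24.9 and 28.7 TPM in KO and 22.6 and 14.5 TPM in WT TA cells.

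The list of other carriers was compared in the same way. In Enterocyte cells 23 of 45 passed the filter and limma called 0, with 18 lower and 5 higher in KO and a median of -0.21 on the log2 scale. Both KO animals lay below both WT animals for 11 of the 23 (21.6% of genes) and above for 2 (16.3%), and 6 had an unadjusted p under 0.05 (8.23% of genes). Slc5a12 (6.46 and 2.82 TPM in KO animals) and Slc5a9 (8.98 and 7.53 TPM) passed the filter only through WT. Both are among the 11 and among the 6, so these counts lean toward KO being lower. Slc3a2 had 327.9 and 374.3 TPM in KO and 391 and 423 TPM in WT animals, a difference of -0.21. The pump subunit Atp1b1 differed by -0.04. On the absorptive average 0 of 23 were called, and 14 were higher and 9 lower in KO.

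The runs were compared on the absorptive average over the 8 combinations of run and animal, with genotype as a covariate. The 8 were treated as independent, so this fit does not use the reading of a code as the same animal in both runs. limma called 0 of 10 members (0% of 6356 genes, of which 520 had an unadjusted p under 0.05), and Slc7a9 and Slc1a5 had an unadjusted p under 0.05. The members' median difference, run 2 minus run 1, was -0.32, and that of all genes -0.15. Slc1a5 was lower in run 2 in 4 of 4 animals, with a difference of -0.89 (95% interval -1.52 to -0.26, limma adjusted p = 0.543).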

How the data were processed

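SMART-Seq2 libraries of 677 single cells were analysed as deposited. The authors deposited TPM per gene and cell, and Bowtie, TopHat and RSEM stand in the submitters' processing notes; versions and genome build are not given in the sources used here. The labels also name a droplet kit, and to which cells that applies is not stated. TPM sums to the same total in every cell, so depth and its counting error are unknown.

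TPM was averaged over the cells of a type within each animal code and tested as log2(mean TPM + 1), since cells are not replicates. Genes were kept at a mean of 10 TPM or more and above 0 in at least 10% of cells. limma 3.58.1 (lmFit and eBayes with trend, R 4.3.3) was run on all kept genes, with Benjamini-Hochberg adjustment, for the absorptive average (3 types), the 6-type average, each of 6 types, their interaction with genotype (animal as a block) and the run. The fit was tested on simulated data. Fits of 4 animals have 2 residual degrees of freedom before moderation. Python 3.11.15, pandas 2.3.3, SciPy 1.17.1 and matplotlib 3.10.9 made the descriptions.

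The members and all lists were chosen with earlier results of these data known. All 10 members were named. Of the other carriers, the 6 most abundant in Enterocyte cells were to be named, with the subunit Slc3a2. The most alike genes were the 2 with the highest r for each member, taken from genes outside the 10. Some genes that these rules pick are not reported here. Genes of the Enteroendocrine description, and markers named singly, were chosen after their values were seen. Codes M1 and M2 were checked for pairing between genotypes. Deviations of same-numbered animals had a correlation of -0.13 over 6714 genes. With 2 animals per genotype this cannot exclude a pairing, which the labels do not state, and the main fits hold no block on the codes. Alternatives were other pseudocounts, filters, scalings, runs, cells and animals left out, and a replicate block.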

Additional observations from a re-analysis of the deposited data

Results flagged for a closer look

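Of 20 groups of 4 values tested for a sample apart, 1 stood out, and chance alone gives about 1 in 20. In WT, among the 4 combinations of run and animal, the lowest value of Slc2a2 on the absorptive average lay so far from the others that its gap made up 0.942 of the range and passed Dixon's 95% limit for 4 values.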

How the results depend on the processing

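Over all alternatives 459 differences of single members were recomputed, of which 423 kept their direction, 36 took the opposite one and 4 were called. The 4 calls were all Slc13a2 in Enterocyte cells, so the count of members called in single types, 0 as reported, was 1 without the run 1 cells of KO M2, 1 without cells bearing markers of another lineage and 0 to 1 when 1 animal was left out. Its limma adjusted p ran from 0.0104 to 0.993. The count of genes reaching 50% of their highest level first in Enterocyte.prog.late or Enterocyte was 9 as reported and 4 with the share of cells above 0.

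A replicate block on the codes gave 63 called genes on the absorptive average, against 8, and 2 on the 6-type average, against 0. Under the block 1 member was called in single types, Slc13a2 at -1.88 (limma adjusted p = 0.0320), and it changed no other member's call. Codes crossed between genotypes, a pairing chosen after the data were seen, called 32 genes on the absorptive average, 44 on the 6-type average and 1 member in single types. The interaction test already holds the animal as a block.

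Called genes on the absorptive average were 18, 39, 40 and more than 100 with 1 animal left out, 17 without the run 1 cells of KO M2, 13 with quantile normalization, 5 with a pseudocount of 0.1, 4 at a minimum of 50 TPM, and 3 both without the 5% of cells with most genes and in run 2. They were 1 in run 1 and without cells of another lineage, and 0 with no filter, with log values averaged and with 8 run and animal units. On the 6-type average they were 0 to 19 with 1 animal left out, 5 in run 2, and 1 with quantile normalization, 8 units or without the cells with most genes.

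None of the reversed differences was called, and the cause was not tested. On the absorptive average, averaging log values gave 0.12 for Slc5a1, 0.24 for Slc6a19 and 0.19 for Slc3a1. Slc5a1 was 0.0037 with quantile normalization and 0.0086 with 8 units. Run 1 alone gave 0.26 for Slc5a1, 0.049 for Slc15a1, 0.21 for Slc6a19, 0.11 for Slc7a9 and 0.11 for Slc3a1. Run 2 alone gave -0.32 for Slc7a7 and 0.0096 for Slc13a2. Without the run 1 cells of KO M2 Slc7a7 was -0.17. With 1 animal left out the range was -0.25 to 0.18 for Slc5a1, -0.95 to 0.052 for Slc6a19, -0.18 to 0.011 for Slc7a9, -0.16 to 0.016 for Slc3a1, -0.16 to 0.27 for Slc7a7, -0.094 to 0.33 for Slc7a8, -0.94 to 0.043 for Slc13a2. On the 6-type average Slc6a19 was -0.042 with a pseudocount of 10 and -0.017 in run 2, Slc7a9 was 0.25 in run 1, Slc3a1 was -0.087 in run 2 and -0.18 without the run 1 cells of KO M2, and Slc7a7 was -0.098 in run 2. There, with 1 animal left out, the range was -0.037 to 0.31 for Slc6a19, -0.32 to 0.086 for Slc7a9. In Enterocyte cells Slc5a1 was 0.12 and Slc6a19 0.59 with log values averaged, and 0.036 and 0.84 in run 1. With 1 animal left out the range there was -0.61 to 0.060 for Slc5a1.

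With 2 animals per genotype, a difference has to be large to pass. Cell types were annotated on the same cells, Enterocyte cells number 11 to 18 per animal, and depth is unknown, so values of genes near 0 TPM, such as Slc2a2 and Slc13a2 before Enterocyte, are limited by detection.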
